A study of Mus musculus with 163 samples.

Results

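The subcortical maternal complex is an assembly of maternal proteins beneath the surface of the mammalian oocyte, and 5 of its genes are described here in single mouse oocytes: Ooep, Tle6, Khdc3, Padi6 and Zbed3. They were chosen by name, as the members other than the NLRP genes, and all 5 were found among the 21950 genes of the count table by their Entrez identifiers. The samples were 163 single oocytes each sequenced as its own library with Smart-seq2, which amplifies whole polyadenylated transcripts from 1 cell, at the growing oocyte (GRO) or the fully grown oocyte (FGO) stage. The iPSC-derived oocytes (23 GROs, 24 FGOs) came from BVSC-iPSC, 1 female mouse line with Blimp1-Venus and Stella-ECFP reporters. The gonad-derived oocytes (24 GROs, 24 FGOs) started from germ cells of E12.5 embryonic gonads. A further 24 FGOs were grown in culture from follicles taken at 6 days post partum (6 dpp), and 24 GROs and 20 FGOs developed in vivo. No treatment or deletion was named for any group.

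The groups differed in how many steps took place in culture. In vitro PGC differentiation (IVP) made primordial germ cell-like cells from the iPSCs, in vitro differentiation (IVD) took germ cells to growing oocytes in aggregates with gonadal somatic cells, and in vitro growth (IVG) took follicles to the FGO stage. The iPSC-derived cells were aggregated with gonadal cells of Swiss Webster embryos from which the host germ cells had been depleted by magnetic sorting, so some host germ cells may have been left. The labels named no animal, embryo, culture or oocyte size behind an oocyte and gave no strain or age for the in vivo oocytes. Each group therefore counted as 1 sample, no p-value could be given for any difference, and the spread between oocytes is shown in place of a replicate error.

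The complex is known as a maternal store. Its genes are transcribed while the oocyte grows, its proteins persist into the early embryo, and mouse mothers that lack one of its core members give embryos that stop at the early cleavages. OOEP and TLE6 form its core with NLRP5, KHDC3 joins through NLRP5, PADI6 is needed for the cytoplasmic lattices that store maternal ribosomes and proteins, and ZBED3, also known as an Axin-binding protein of Wnt signalling, was described as a later member. The table holds messenger RNA only, so nothing here is about the proteins.

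Depth ran from 2.17 M to 13.7 M counted reads per oocyte (M, 1000000 reads), with a median of 6.93 M. Levels are given as counts per 1000000 reads (CPM), pooled over a group, with the lowest, median and highest oocyte. A CPM is a share of the library, so a lower value of 1 transcript cannot be told apart from more of the others. With 110910 reads or more behind each pooled value, counting error was small: the widest exact 95% Poisson interval in relative terms was that of Khdc3 in in vivo FGOs, 760.6 to 769.6 CPM. All 8 markers of oocytes were above 1 CPM in each group. Their summed level had medians of 37336 to 41620.3 CPM in the GRO groups. In FGOs the median was 31433 CPM in vivo, 20968 CPM from 6 dpp follicles, 21160 CPM from gonads and 17934 CPM from iPSCs. Granulosa markers (8 of 10 in the table, Foxl2 and Inha not analysed here) summed to medians of 48.0 to 53.9 CPM in GROs and 86.3 to 123.5 CPM in FGOs. Cyp19a1 was at 8.87 to 20.1 CPM in GROs and made up most of the sum in FGOs, at 61.9 to 77.2 CPM, whereas Amh reached no more than 1.10 CPM in any group. Markers of theca and stroma, 6 of 6 in the table, had medians of 0.899 to 4.21 CPM, and 3 of 4 blood markers were in the table with a median of 0 in every group. In 1 FGO from 6 dpp follicles, oocyte 12, granulosa markers summed to 407 CPM and theca and stroma markers to 170.3 CPM. The part of these levels in the results below was not tested.

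Before the results, 2 libraries have to be named. The gonad-derived FGO 19 had a median correlation of 0.893 with the other gonad-derived FGOs, where the next lowest of that group had 0.964, and it lay far outside its group for 4 of the 5 genes. The in vivo FGO 7 was closer to gonad-derived GROs (median correlation 0.969) than to its own group (0.949). Values without them are given where a level or ratio rests on them. Of the 24 gonad-derived FGOs 8, FGO 19 among them, were closer to the 6 dpp group than to their own, as was 1 of 24 gonad-derived GROs to iPSC-derived GROs.

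The 5 genes lie on 4 chromosomes of GRCm38, with Ooep and Khdc3 both on chromosome 9. Ooep is at chr9:78376903-78378588 on the minus strand, Khdc3 at chr9:73101381-73106631 on the plus strand, Tle6 at chr10:81590904-81601185 on the minus strand, Padi6 at chr4:140727355-140742643 on the minus strand and Zbed3 at chr13:95323605-95337842 on the plus strand. All values are counts over exons. Khdc3 overlaps the protein-coding gene model Gm20509 on the same strand in GENCODE, so reads of their shared exons cannot be assigned between them, and Zbed3 overlaps the snoRNA genes Snora47 and Gm22661. For Ooep, Tle6 and Padi6, GENCODE lists 0 overlapping genes.

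Padi6 and Zbed3 were the 2 members with the highest levels per length in GROs, and they had the lowest and the highest ratio between the stages in the iPSC and gonad pairs, so the 250 bases before their annotated starts are shown from RefSeq (GRCm38.p6), 5′ to 3′ on the gene's strand. Capitals mark CANNTG, the E-box core bound by helix-loop-helix factors such as FIGLA, searched on both strands, which for this palindromic motif are the same matches. TAATTG, a homeobox core of the kind bound by NOBOX, was searched on both strands too and had 0 matches in either window and 1 in the Ooep window, the only TAATTG match among the listed windows of the 5 genes. CANNTG was found in 66.0% and TAATTG in 7.34% of 27025 promoter windows of the same length, so the matches are a description only. The Padi6 window is chr4:140742644-140742893 on the minus strand, with 2 CANNTG matches, and the Zbed3 window is chr13:95323355-95323604 on the plus strand, the first of 3 listed starts, with 3 matches, where the windows of the other starts hold 1 each.
Padi6: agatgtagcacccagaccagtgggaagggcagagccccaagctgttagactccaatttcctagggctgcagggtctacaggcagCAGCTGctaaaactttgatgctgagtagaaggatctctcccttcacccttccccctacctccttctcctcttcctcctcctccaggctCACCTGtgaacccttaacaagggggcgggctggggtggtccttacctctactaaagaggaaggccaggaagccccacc
Zbed3: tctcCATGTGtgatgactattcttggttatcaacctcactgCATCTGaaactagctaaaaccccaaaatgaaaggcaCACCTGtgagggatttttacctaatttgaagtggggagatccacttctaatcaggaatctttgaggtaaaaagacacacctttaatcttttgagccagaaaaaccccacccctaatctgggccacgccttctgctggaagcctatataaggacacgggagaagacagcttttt

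Between GRO and FGO, the 5 transcripts took separate courses. Khdc3 and Padi6 were at least 2-fold lower in FGOs of the 3 sources with both stages, though Padi6 in vivo only just, at a ratio that other scalings put under 2-fold. Tle6 was at least 2-fold lower only in the gonad- and iPSC-derived pairs, Ooep was lower by less than that, and Zbed3 was level or somewhat higher. Together the 5 genes took 4.22%, 3.68% and 4.24% of the counted reads in iPSC-derived, gonad-derived and in vivo GROs, and in FGOs 2.94% in vivo, 2.30% from 6 dpp follicles, 2.31% from gonads and 2.38% from iPSCs.

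**Figure D1:**
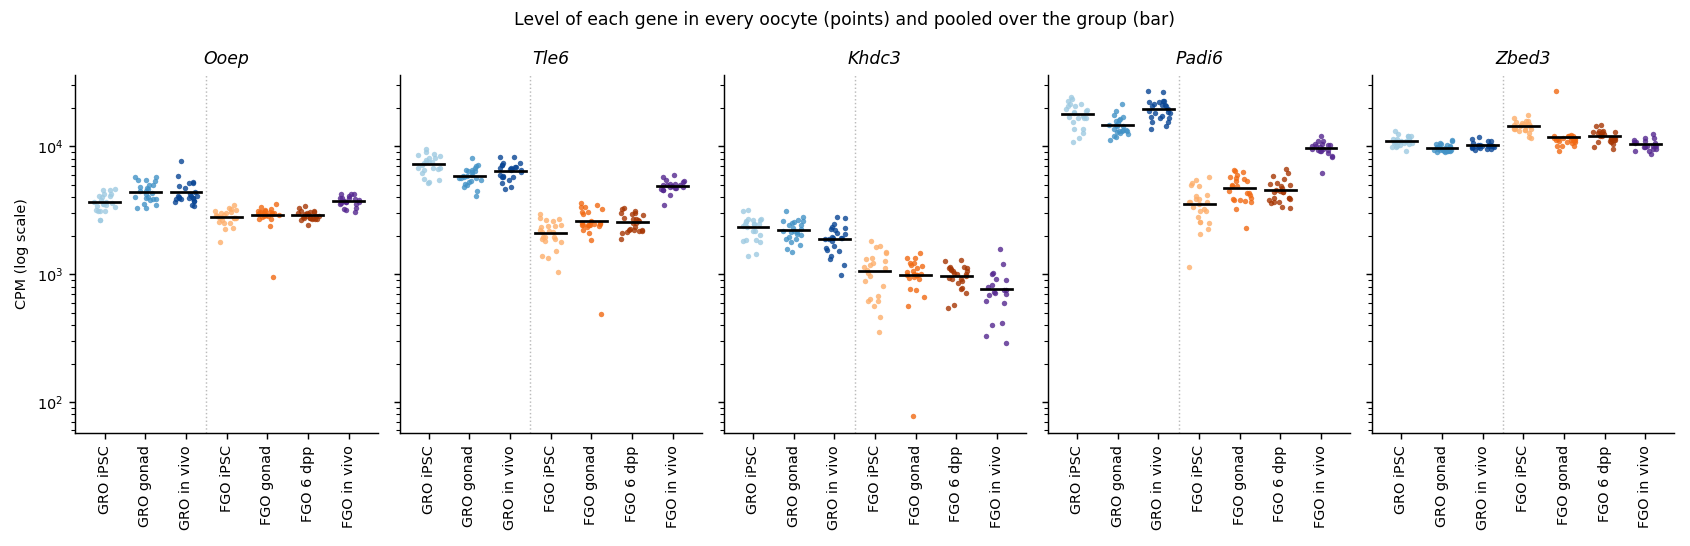
CPM of each gene on a log axis in every oocyte (points) of the 7 groups, with the pooled CPM as a bar and a dotted line between GROs and FGOs. The Padi6 points of GROs and FGOs do not meet within a source, the Zbed3 points stay in a narrow band, and the gonad-derived FGO 19 sits apart at 77.4 CPM of Khdc3 and 27108 CPM of Zbed3.

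Padi6, a peptidylarginine deiminase family member of oocytes and early embryos, had the highest level of the 5 in GROs. In vivo GROs held 19533 CPM pooled (lowest oocyte 13599, median 19149, highest 26927). The iPSC-derived GROs held 17955 CPM (10845, 18314 and 24360.1), and the gonad-derived GROs 14564 CPM (11126, 13932 and 21414). These ranges overlapped, and 12 of 24 gonad-derived GROs were below every in vivo GRO. In vivo FGOs held 9669 CPM (6223, 9696 and 12073). FGOs from 6 dpp follicles held 4508 CPM (3311, 4406 and 6616), and gonad-derived FGOs 4714 CPM (2287, 4670.0 and 6522). The iPSC-derived FGOs were lowest at 3550.3 CPM (1141, 3594 and 5775). Every FGO of the in vivo, gonad and iPSC sources was below every GRO of its source.

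Tle6, which encodes a Groucho-related protein, was at 6449.9 CPM in in vivo GROs (lowest 4646, median 6592, highest 8219). It was at 7249 CPM in iPSC-derived GROs (5144, 7352 and 9431) and at 5902 CPM in gonad-derived GROs (4109, 5787 and 8098). The ranges of the 3 GRO groups overlapped in part, with 6 of 23 iPSC-derived GROs above every gonad-derived GRO and 5 of 23 above every in vivo GRO. In vivo FGOs held 4914 CPM (3489, 4893 and 5992). The 6 dpp FGOs held 2561 CPM (1868, 2560.1 and 3269.7), gonad-derived FGOs 2610.3 CPM (488, 2476 and 3594) and iPSC-derived FGOs 2095 CPM (1034, 2125 and 2938). In vivo FGOs thus overlapped with in vivo GROs, and 5 of the 20 were below every in vivo GRO, whereas every gonad- and iPSC-derived FGO was below every GRO of its source.

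Khdc3, a KH-domain protein also known as FILIA, had the lowest level per length of the 5 in every group. It was at 1897 CPM in in vivo GROs (lowest 988, median 1920.1, highest 2805), 2316 CPM in iPSC-derived GROs (1389.5, 2463 and 3159) and 2206 CPM in gonad-derived GROs (1477, 2176 and 3098.5). In vivo FGOs held 765 CPM (288, 736 and 1572). The 6 dpp FGOs held 970.4 CPM (545, 1005 and 1297), gonad-derived FGOs 989.8 CPM (77.4, 997 and 1468) and iPSC-derived FGOs 1067 CPM (352, 1102 and 1812). In vivo FGOs thus had the lowest pooled Khdc3 of the 4 FGO groups, where they had the highest Padi6 and Tle6. The in vivo FGOs 7, 5, 22 and 19 were the 4 of 20 nearest to GROs on the first principal component of all oocytes, and without them in vivo FGOs held 656 CPM.

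Ooep, the small KH-domain-like core protein, was at 4365 CPM in in vivo GROs (lowest 3394, median 4043, highest 7633), 4396 CPM in gonad-derived GROs (3299.7, 4402 and 5795) and 3691 CPM in iPSC-derived GROs (2634, 3569 and 4649). It was at 3717 CPM in in vivo FGOs (3082, 3720.2 and 4249), 2892 CPM in 6 dpp FGOs (2421, 2848 and 3391), 2897 CPM in gonad-derived FGOs (955, 2987 and 3531) and 2786 CPM in iPSC-derived FGOs (1797, 2786.5 and 3502.5). The 3 cultured FGO groups lay within 1.04-fold of each other, gonad-derived FGOs holding 2984 CPM without FGO 19, and 20 of 24 FGOs from 6 dpp follicles were below every in vivo FGO.

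Zbed3, a BED-type zinc finger protein, had the smallest coefficient of variation of the 5 between oocytes in every group other than 6 dpp FGOs and, through FGO 19 alone, gonad-derived FGOs, where that of Ooep was smaller. It was at 10165 CPM in in vivo GROs (lowest 9396, median 10035, highest 11751), 11028 CPM in iPSC-derived GROs (9150.1, 10911 and 13265) and 9732 CPM in gonad-derived GROs (8937, 9576 and 11218). In vivo FGOs held 10319 CPM (8765, 10134 and 12355). The 6 dpp FGOs held 12024 CPM (9450.4, 11794 and 14539.8) and gonad-derived FGOs 11856 CPM (9216, 11253 and 27108, the highest being FGO 19), while iPSC-derived FGOs were the highest group at 14296 CPM (11614, 14342 and 17406). Without FGO 19 the pooled value of gonad-derived FGOs was 11174 CPM.

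The difference between the stages was then set against the background of all genes, in 3 pairs of groups that share no library. A gene entered a comparison when it was above 1 CPM in at least 3 oocytes of the pair, and the ratio is the log2 of pooled CPM plus 0.5, so that -1 means 2-fold lower. All 5 members passed this filter in every comparison. In vivo, 2 of the 5, Khdc3 (-1.31, 2.48-fold, or -1.53 without in vivo FGOs 5, 7, 19 and 22) and Padi6 (-1.01, 2.02-fold), were at least 2-fold lower in FGOs, where 13.2% of 13148 genes were. Padi6 lay at the threshold: its ratio was -0.95 with TMM scaling, and without in vivo FGO 18, in vivo GRO 3 or in vivo GRO 7 it was -0.99, under 2-fold. Tle6 had a ratio of -0.39, Ooep -0.23 and Zbed3 0.02. In the iPSC pair, 3 of 5 were at least 2-fold lower, against 15.3% of 13115 genes: Padi6 (-2.34, 5.06-fold), Tle6 (-1.79, 3.46-fold) and Khdc3 (-1.12, 2.17-fold). Padi6 was the 1 member past 4-fold there, as were 3.61% of all genes. In the gonad pair the same 3 were past 2-fold, against 9.98% of 13068 genes: Padi6 at -1.63, Tle6 at -1.18 and Khdc3 at -1.16. Ooep was at -0.41 in the iPSC pair and -0.60 in the gonad pair, and Zbed3 at 0.37 and 0.28, the latter 0.20 without gonad-derived FGO 19. No member was at least 2-fold higher in any pair, where 10.4%, 6.69% and 5.82% of genes were in the in vivo, iPSC and gonad pairs. The median ratio of all genes was -0.11, -0.11 and -0.05 in the same order.

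**Figure D2:**
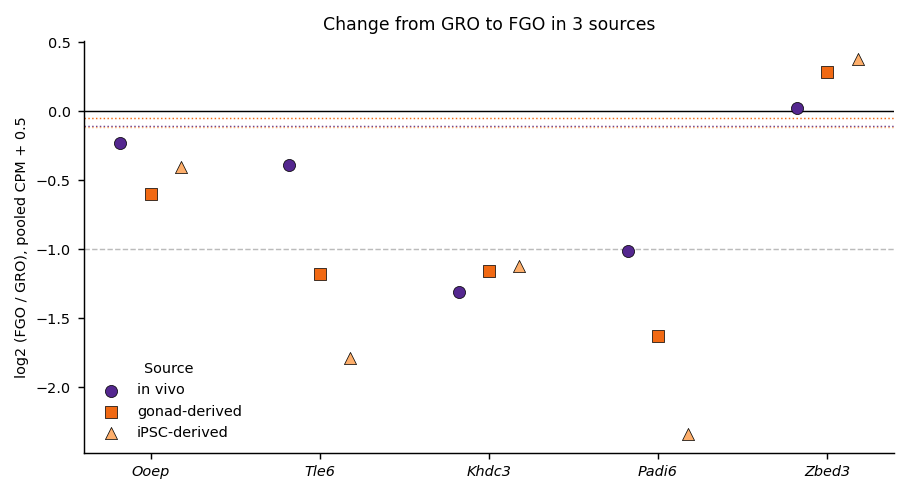
Log2 ratio of FGO over GRO for each gene in the in vivo, gonad-derived and iPSC-derived pairs, with dotted lines at the median of all genes in each pair and a dashed line at 2-fold lower. Padi6 and Tle6 are spread widely by source (-1.01 to -2.34 and -0.39 to -1.79), while the 3 Khdc3 values lie closer together (-1.12 to -1.31, the in vivo one -1.53 without in vivo FGOs 5, 7, 19 and 22).

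By single oocytes, fewer members stood apart in vivo and in the iPSC pair than by ratio. Every FGO was below every GRO for 1 member in vivo (Padi6), where 1.19% of genes met this, or 2.46% without in vivo FGO 7 and 5.8% without in vivo FGOs 5, 7, 19 and 22, for 2 in the iPSC pair (Padi6 and Tle6), where 5.62% did, and for 3 in the gonad pair (Padi6, Tle6 and Khdc3), where 2.62% did. Leaving out in vivo FGO 7 or gonad-derived FGO 19 left these members as they were, while the share of all genes in the gonad pair was 2.88% without FGO 19. For Khdc3, 16 of 20 in vivo FGOs and 19 of 24 iPSC-derived FGOs were below every GRO of their source. For Zbed3, 20 of 24 iPSC-derived and 12 of 24 gonad-derived FGOs were above every GRO of their source, against 1 of 20 in vivo. The difference between sources in the size of this difference was largest for Tle6 and Padi6: the iPSC ratio was lower than the in vivo ratio by 1.40 and 1.32 on the log2 scale, and the gonad ratio by 0.78 and 0.61. With 1 sample a group these differences could not be tested.

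Which culture step went with these differences was addressed by comparing groups at the same stage along the culture. Each pair is named by the step that sets its groups apart, but other things differ with it. Germ cells came from a cell line or from embryos, IVG was shorter for gonad-derived and 6 dpp follicles than for iPSC-derived ones, and the study describes cultured GROs as larger than in vivo GROs. These cannot be told apart from the step here, where oocyte size was not analysed. Among GROs no member was 2-fold apart. For IVP, iPSC-derived against gonad-derived GROs, the ratios were 0.30 for Padi6, 0.30 for Tle6, 0.18 for Zbed3, 0.07 for Khdc3 and -0.25 for Ooep, and 2.03% of genes were at least 2-fold higher and 1.8% lower. For IVD, gonad-derived against in vivo GROs, Padi6 had the lowest ratio, -0.42, with 23 of 24 oocytes below the in vivo median. Khdc3 was at 0.22, Tle6 at -0.13, Zbed3 at -0.06 and Ooep at 0.01, and 4.3% of genes were at least 2-fold higher and 2.75% lower. Over both steps, iPSC-derived against in vivo GROs, all ratios lay between -0.24 (Ooep) and 0.29 (Khdc3), where 5.61% of genes were 2-fold higher and 4.38% lower.

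Among FGOs, IVG was the step with the ratio furthest from 0 for 4 of the 5 members, the exception being Zbed3. FGOs from 6 dpp follicles against in vivo FGOs gave -1.10 for Padi6 (2.14-fold), -0.94 for Tle6 (1.92-fold), -0.36 for Ooep, 0.34 for Khdc3 and 0.22 for Zbed3. Padi6 was the 1 member at least 2-fold lower, against 3.12% of 12932 genes, 1.25% being at least 2-fold higher, and 23 of its 24 cultured oocytes were below every in vivo FGO. Only in vivo FGO 18 (6223 CPM) was below the highest cultured oocyte (6616 CPM), the next lowest in vivo FGO holding 8299 CPM. Tle6 did not reach 2-fold, but all 24 of its cultured oocytes were below all 20 in vivo FGOs, as for 0.24% of genes. Without in vivo FGOs 5, 7, 19 and 22 this held for 0.394% of genes, Tle6 among them. For Khdc3, 21 of 24 cultured oocytes were above the in vivo median, the ranges overlapped, and the ratio was 0.57 without in vivo FGOs 5, 7, 19 and 22. The IVD step, gonad-derived against 6 dpp FGOs, left all 5 members between -0.02 (Zbed3) and 0.06 (Padi6). Without gonad-derived FGO 19 the span was -0.11 (Zbed3) to 0.10 (Padi6). At least 2-fold lower were 0.948% of genes and higher 1.64%.

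The IVP step at the FGO stage, iPSC-derived against gonad-derived FGOs, had ratios opposite in sign to those in GROs for Padi6 (-0.41) and Tle6 (-0.32). Zbed3 was at 0.27, or 0.36 without FGO 19, and all 24 iPSC-derived FGOs were above the gonad-derived median. Khdc3 was at 0.11 and Ooep at -0.06. Without FGO 19 the ratios were -0.44 for Padi6, -0.37 for Tle6, 0.05 for Khdc3 and -0.10 for Ooep. No member was 2-fold apart, where 2.3% of genes were higher and 3.9% lower. Over the whole of the culture, iPSC-derived against in vivo FGOs, which share their in vivo libraries with the IVG comparison, 2 of 5 members were at least 2-fold lower, against 10.3% of 12972 genes, 4.21% being at least 2-fold higher. These were Padi6 (-1.45, 2.72-fold) and Tle6 (-1.23, 2.35-fold), and for both every iPSC-derived oocyte was below every in vivo oocyte, as for 2.04% of genes. The 8 oocyte markers had a median ratio of -0.79 in this comparison. Of them 3 were at least 2-fold lower: Zp1 (-1.09), Zp2 (-1.30) and Ddx4 (-1.05, or -0.91 without in vivo FGO 7). At the IVG step their median was -0.58 and 0 were past 2-fold. Ooep was at -0.42, with 19 of 24 oocytes below every in vivo FGO. Khdc3 (0.48, or 0.70 without in vivo FGOs 5, 7, 19 and 22) and Zbed3 (0.47) were on the other side, and 22 of 24 iPSC-derived FGOs were above every in vivo FGO for Zbed3.

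**Figure D3:**
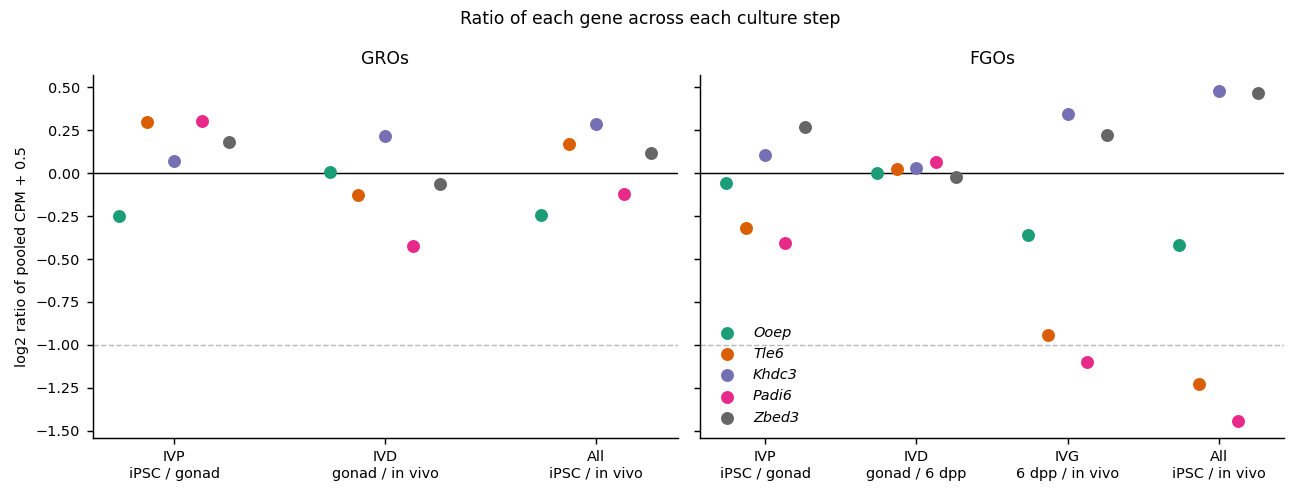
Log2 ratio of pooled CPM plus 0.5 for each gene across each culture step, in GROs (left) and FGOs (right), with a dashed line at 2-fold lower. In GROs all points lie between -0.42 and 0.30, whereas in FGOs Padi6 and Tle6 lie at -1.10 and -0.94 for IVG and at -1.45 and -1.23 for the whole culture.

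Levels of different genes were compared per length, as CPM per kilobase of counted exons (RPKM). In GROs, Padi6 stood highest (6039, 4899 and 6570.2 RPKM in iPSC-derived, gonad-derived and in vivo groups) and Zbed3 close behind (5393, 4759 and 4971 RPKM). Padi6 was the highest in 23 of 24 in vivo GROs, but only in 15 of 23 iPSC-derived and 13 of 24 gonad-derived GROs, so their order was not settled within the spread of the cultured groups. Ooep (2781 to 3312 RPKM) and Tle6 (2292 to 2815 RPKM) were next, and Khdc3 (1050.3 to 1282 RPKM) was the lowest in every GRO. In FGOs, Zbed3 was the highest of the 5 in every oocyte, at 5046 to 6990.5 RPKM. Padi6 came next in 16 of 20 in vivo FGOs (3252 RPKM pooled, against 2801 of Ooep), whereas Ooep came next in 23 of 24 iPSC-derived, 22 of 24 gonad-derived and 24 of 24 6 dpp FGOs.

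As shares of their summed RPKM, the 5 transcripts had a different balance at the 2 stages. Padi6 held 33.0%, 29.7% and 35.7% in iPSC-derived, gonad-derived and in vivo GROs, and in FGOs 10.2% from iPSCs, 14.2% from gonads, 13.7% from 6 dpp follicles and 24.2% in vivo. Zbed3 held 29.5%, 28.9% and 27.0% in the GRO groups in that order, and in FGOs 59.8% from iPSCs, 52.1% from gonads, 52.9% from 6 dpp follicles and 37.6% in vivo. In gonad-derived FGO 19 Zbed3 made up 88.5%. Tle6 held 13.6% in GROs and 14.2% in FGOs in vivo, and 15.4% and 6.96% in the iPSC pair. The lengths behind these values are the deposited ones, from 1327 bases for Ooep to 2973 bases for Padi6, and none equals the length of a GENCODE transcript of its gene. With the longest GENCODE transcript of each gene in their place, Padi6 stayed ahead of Zbed3 in the 3 GRO groups and Zbed3 led in the 4 FGO groups, but Padi6 then came before Ooep in all 4 FGO groups (12.8% against 11.0% in iPSC-derived FGOs) and Tle6 before Ooep in the 3 GRO groups, where with the deposited lengths it did so only in the iPSC-derived group, and in in vivo FGOs.

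**Figure D4:**
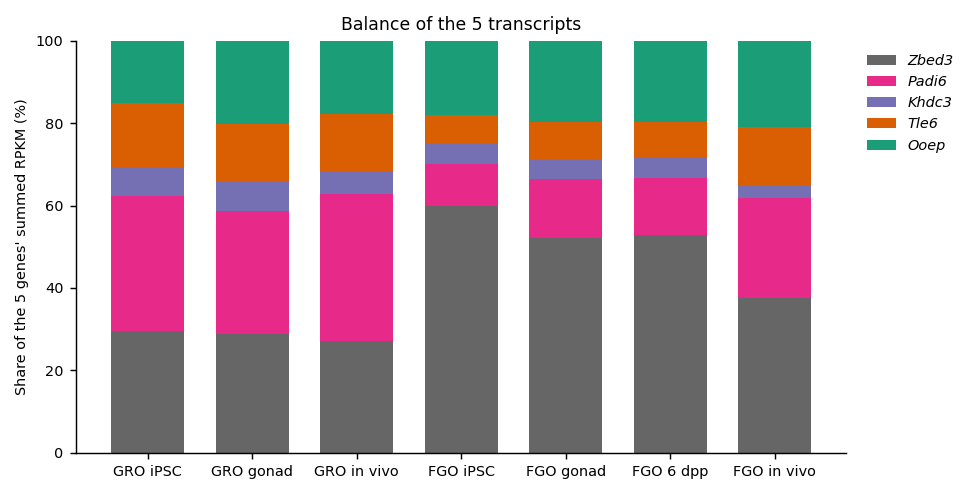
Share of each gene in the summed RPKM of the 5 genes, pooled over each group, as stacked bars from 0 to 100%. Padi6 takes 29.7 to 35.7% in GROs and 10.2 to 24.2% in FGOs, Zbed3 takes 27.0 to 29.5% in GROs and 37.6 to 59.8% in FGOs, and for these 2 genes in vivo FGOs lie between the GROs and the cultured FGOs.

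The members also differed in how much single oocytes of 1 group varied. Zbed3 had a coefficient of variation of 5.82% in in vivo GROs, 6.34% in gonad-derived GROs, 8.51% in iPSC-derived GROs and 8.87 to 10.8% in in vivo, iPSC-derived and 6 dpp FGOs, where the median of all genes above the filter was 26.5 to 33.1%. In gonad-derived FGOs it was 28.3%, and 6.85% without FGO 19. Khdc3 varied most in FGOs, with 39.9% in vivo and 38.2% in the iPSC-derived group. The in vivo value includes FGOs 5, 7, 19 and 22, nearest to GROs on the first principal component. These held 1572, 905, 1193 and 1024 CPM of Khdc3, where the group median was 736 CPM. The spread without them was not computed. Padi6 varied by 32.0% in iPSC-derived FGOs against 12.7% in in vivo FGOs, and Tle6 by 22.8% against 11.0%. Of the total sum of squares of log2(CPM + 1), stage took 73.7% for Padi6, 62.8% for Tle6, 58.1% for Khdc3, 39.6% for Ooep and 23.0% for Zbed3, beside a median of 14.5% over 14228 genes. The stage term set all GROs against all FGOs, with the 6 dpp group among FGOs only, so it mixes stage with culture. For Tle6 the log2 ratio of FGO over GRO was -0.39 in vivo, -1.79 in the iPSC pair and -1.18 in the gonad pair. Source within a stage took 33.1% for Zbed3, 21.1% for Tle6, 17.4% for Ooep, 16.6% for Padi6 and 3.81% for Khdc3, beside a median of 14.7%. The shares include gonad-derived FGO 19 and were not computed without it. Leaving it out took the SD of log2(CPM + 1) in its group from 0.28 to 0.10 for Zbed3. The same SD went from 0.82 to 0.33 for Khdc3 and was lower for the other members too.

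Padi6 and Tle6 were positively correlated from oocyte to oocyte within every group. Pearson's r of log2(CPM + 1) was 0.76 to 0.86 over the 7 groups of 20 to 24 oocytes, and Spearman's rho 0.44 (in vivo FGOs) to 0.86. The oocytes of a group share preparation and scaling to the library total, and the correlation of each gene with the log2 total was -0.09 to 0.29. Ranked by their correlation with Tle6 among 8454 genes, Padi6 was between place 3 (6 dpp FGOs) and place 33 (in vivo FGOs) in 6 groups and at place 1063 in gonad-derived FGOs, where r was 0.79 and 0.73 without FGO 19. The place was computed with FGO 19 only. The median r of all genes with Tle6 was 0.16 in gonad-derived FGOs and -0.09 to 0.10 in the other groups. Of the other 9 pairs, none had the same sign in all 7 groups. Padi6 and Zbed3 had r of 0.27 to 0.51 in the 3 GRO groups and of -0.22 to -0.77 in the 4 FGO groups. The size of these values depended on the scaling. With TMM scaling r was 0.34 to 0.69 in the GRO groups. In FGOs it was then -0.05 from 6 dpp follicles, -0.38 in vivo, -0.61 from iPSCs and -0.62 from gonads. Zbed3 had r of 0.67 with the log2 total in 6 dpp FGOs. Several extremes rested on FGO 19: in gonad-derived FGOs r of Khdc3 and Zbed3 was -0.86 with it and 0.03 without it, and r of Ooep and Khdc3 was 0.81 with it and -0.44 without it.

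**Figure D5:**
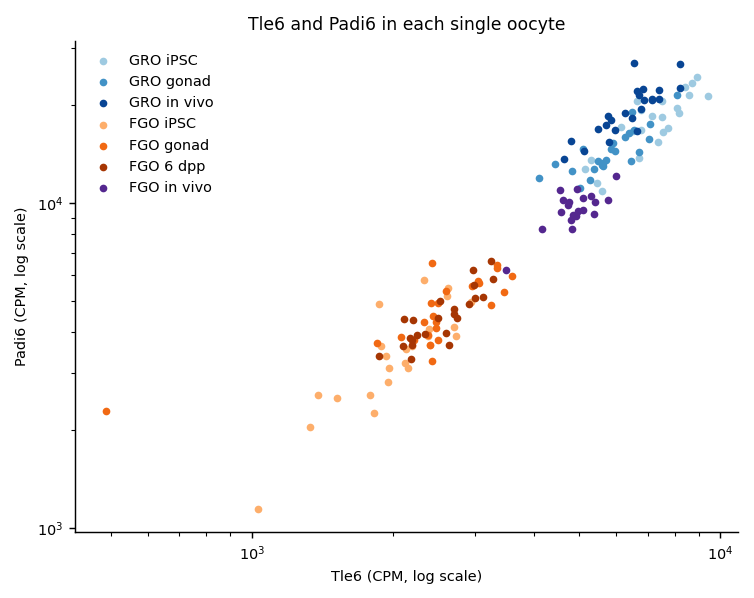
Padi6 against Tle6 in each of the 163 oocytes, both in CPM on log axes, coloured by group. GROs lie at the upper right, in vivo FGOs in an intermediate cloud and cultured FGOs at the lower left, with iPSC-derived FGO 2 (1034 and 1141 CPM) and gonad-derived FGO 19 (488 and 2287 CPM) at the low end.

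The genes whose levels over all 163 oocytes were most like those of a member, by Pearson's r among 8453 genes of at least 10 pooled CPM in a group, were other oocyte genes for Padi6 and Tle6. The measure was log2(CPM + 1). For Padi6 they were Nlrp14 (r = 0.983), an NLRP-family gene of oocytes, and Zp1 (0.977) and Zp2 (0.974), which encode glycoproteins of the zona pellucida. For Tle6 they were the same 3 in another order, Zp2 (0.954), Nlrp14 (0.953) and Zp1 (0.941). Zbed3 was most like H1f8 (0.851), the oocyte linker histone, then Dnal4 (0.801) and Rbbp7 (0.797), a histone-binding protein. Khdc3 was most like Lsm4 (0.895), an RNA-processing protein, Fzr1 (0.849), an activator of the anaphase-promoting complex, and Adad2 (0.837). Ooep was most like Pafah1b3 (0.842), the centromere protein gene Cenpm (0.840) and Phpt1 (0.835). These values include the differences between groups. With each group's mean taken away, r was 0.912 for Padi6 with Nlrp14, 0.810 for Khdc3 with Lsm4 and 0.709 for Zbed3 with H1f8, each still the highest for its member, whereas r of Khdc3 with Adad2 was 0.544. For Tle6 and Ooep other genes then led. Rpn2 had the highest r with Tle6 (0.852), Zp2 was at place 2 (0.807), Nlrp14 at place 18 (0.714) and Zp1 at place 22 (0.705). For Zbed3, Rbbp7 was then at place 6 (0.577) and Dnal4 at place 10 (0.547), and by Spearman's rho over all oocytes Cdca3 (0.755) and Arnt (0.754) were ahead of H1f8 (0.751). Uchl1 had the highest r with Ooep (0.791), Phpt1 was at place 4 (0.762), Pafah1b3 at place 9 (0.754) and Cenpm at place 117 (0.643). The choice depended on gonad-derived FGO 19 for Ooep: without it Coq7 (0.828) and Cox6c (0.824) were ahead of Pafah1b3 (0.807), and 1 of the 3 genes was shared.

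H1f8 and Zp2 were picked for their likeness over these same oocytes, so a shared order of the groups follows from that choice. H1f8 shared the direction of Zbed3, with 5642.6 and 6064 CPM in in vivo GROs and FGOs and 5601 and 8077 CPM in iPSC-derived ones. Zp2, like Padi6, was highest in vivo and lowest from iPSCs among FGOs, with 4883 CPM in vivo, 2809 CPM from 6 dpp follicles, 2770.4 CPM from gonads and 1983 CPM from iPSCs. Of the NLRP genes, Nlrp5 had log2 ratios of FGO over GRO of -1.12, -2.41 and -1.87 in the in vivo, iPSC and gonad pairs, and Nlrp14 of -0.55, -1.98 and -1.36. In the in vivo pair, Nlrp2 (0.39) and Nlrp4f (0.06) were not lower in FGOs. The highest ratio among the 8 partner genes was 0.04 in the iPSC pair and -0.0003 in the gonad pair. At the IVG step Nlrp5 was at -1.42 and Nlrp14 at -1.24, the 2 of 8 partner genes at least 2-fold lower there, whereas Nlrp2 was at -0.69 and Nlrp4f at -0.02.

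Relatives and partners of the members were counted from lists by family and known role, and the shares of all genes given above are their background. Of the 8 complex and lattice partners in the table, 4 were at least 2-fold lower in FGOs in vivo (Nlrp5, the maternal DNA methylation regulators Dnmt1 at -1.24 and Uhrf1 at -1.25, and the RNA-binding protein Ybx2 at -1.07), and 2 in the iPSC and in the gonad pair (Nlrp5 and Nlrp14). The list median was -0.81 in vivo, -0.84 in the iPSC pair and -0.64 in the gonad pair. Ube2d3 and Cfl1 were not analysed here. Of 4 KH-domain relatives of Ooep and Khdc3, Dppa5a was lower in all 3 pairs (-1.77, -1.64 and -2.07, from 962 to 281 CPM in vivo), as was Khdc1a (-2.06, -1.15 and -1.31). Khdc1c, at no more than 4.74 CPM in any group, was at 1.05 in the iPSC pair. Of the other deiminases only Padi4 was past 2-fold, at -1.11 in the iPSC and -1.04 in the gonad pair. The deiminases Padi1 to Padi4 had no more than 14.6 CPM in any group, far under Padi6.

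Of the Groucho relatives of Tle6, Tle4 was the 1 gene at least 2-fold lower in the 3 pairs, at -1.99, -1.02 and -1.21 in vivo, from iPSCs and from gonads, the iPSC ratio of Tle4 being -0.94 and so under 2-fold with TMM scaling, with 83.8 CPM in in vivo GROs and 20.7 CPM in in vivo FGOs. Its ratio was lowest in vivo, where that of Tle6 was nearest to 0. Zbed4, with 6.33 CPM in in vivo and 2.84 CPM in iPSC-derived GROs, was the 1 of 2 ZBED relatives past 2-fold, at -1.03 between those groups, and Zbed6 was not analysed here. Of the 5 genes of the Axin scaffold, 2 were at least 2-fold higher in the iPSC growth pair, Apc (1.08) and Gsk3b (1.04), both at no more than 10.4 CPM in any group.

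Oocyte transcription factors that are known regulators of oocyte genes were mostly lower in FGOs, with 4 of 6 in vivo, 5 of 6 in the iPSC pair and 3 of 6 in the gonad pair at least 2-fold lower. Figla, a helix-loop-helix factor known for the zona pellucida genes, was at -1.47, -1.61 and -1.57 in the in vivo, iPSC and gonad pairs. Sohlh1 had the lowest ratios (-3.66, -4.22 and -2.91) at levels of 6.59 to 18.3 CPM in GROs and 0.251 to 0.993 CPM in FGOs. The highest of these, in vivo, was carried by FGO 7 at 13.8 CPM: without it in vivo FGOs held 0.362 CPM and the in vivo ratio of Sohlh1 was -4.45. At the IVP step in GROs, Sohlh2 (1.81) and Sohlh1 (1.39) were at least 2-fold higher in iPSC-derived oocytes, and at the IVD step Sohlh1 was at -1.41. Sohlh2 was also higher in iPSC-derived than in in vivo oocytes, at 1.99 in GROs and 1.17 in FGOs. At the IVG step 0 of the 6 were past 2-fold. Lhx8 was not analysed here.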

How the data were processed

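The deposited table holds unnormalized counts of reads for every gene and oocyte, beside an exonic length. Before that the authors had mapped the reads to GRCm38 (mm10) and spike-in sequences using STAR, placing multi-mapping reads at random, and counted uniquely mapped exonic reads with QuasR for 1 random transcript per gene. The QuasR version and strand use were not given in the sources used here, and the table holds no spike-in rows. Symbols came from RefSeq for 21907 of 21950 genes. From the counts, CPM was pooled over the oocytes of a group, and log2 ratios used a pseudocount of 0.5 CPM after a filter of above 1 CPM in at least 3 oocytes. The labels name no animal or culture, so no test was run, and all oocytes were kept, where the authors chose oocytes by size for some fits. The text names all 5 members, the 3 genes most like each, and list genes at least 2-fold apart or markers. The members and lists were chosen with earlier results of these data known. Calculations ran in Python 3.11.15 (numpy 2.4.6, pandas 2.3.3) and the ratios were checked on simulated data. Alternatives were TMM (edgeR 4.0.16) and median-of-ratios scaling, medians over oocytes, other pseudocounts and filters, and leaving oocytes out. Checks without gonad-derived FGO 19, the non-overlap counts with oocytes left out, the list genes without in vivo FGO 7 and with TMM scaling, the principal component and the GENCODE lengths were added after seeing the data.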

Additional observations from a re-analysis of the deposited data

How the results depend on the processing

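The members stayed on the same side of the 2-fold line under the scalings and medians tried, other than Padi6 in the in vivo growth pair, whose ratio lies at the line. Signs differed between settings only for ratios within 0.05 of 0, those of Ooep, Tle6 and Khdc3 for IVD in FGOs and of Ooep for IVD in GROs. In the in vivo growth pair the count of members at least 2-fold lower was 2, and 1 with TMM scaling, with median-of-ratios size factors and with medians over oocytes. With each oocyte left out in turn it was 1 to 2. TMM moved the median ratio of all genes by at most 0.07. No paired analysis was possible because the result comes from no test and the numbers in the labels only name single oocytes. A pseudocount of 2 CPM changed no count of members, but it lowered the counts of all genes behind the backgrounds, since low genes lose their fold. Genes at least 2-fold lower went from 2012 to 1336 for iPSC growth, from 1304 to 837 for gonad growth, from 235 to 136 for IVP in GROs, from 359 to 134 for IVD in GROs, from 503 to 229 for IVP in FGOs, from 123 to 47 for IVD in FGOs, from 404 to 172 for IVG, from 575 to 287 for iPSC-derived against in vivo GROs and from 1333 to 695 for iPSC-derived against in vivo FGOs. For in vivo growth the lower genes went from 1738 to 1173. Genes at least 2-fold higher went from 1373 to 897 for in vivo growth, from 877 to 580 for iPSC growth, from 761 to 446 for gonad growth, from 264 to 123 for IVP in GROs, from 561 to 299 for IVD in GROs, from 297 to 159 for IVP in FGOs, from 213 to 80 for IVD in FGOs, from 162 to 74 for IVG, from 737 to 391 for iPSC-derived against in vivo GROs and from 546 to 311 for iPSC-derived against in vivo FGOs. The median over oocytes gave 71 lower genes for IVD in FGOs. Under the 4-fold rule, 1 member was lower in the iPSC growth pair. Depth did not limit the 5 members, but genes near 1 CPM, such as Sohlh1 in FGOs, rest on few reads. The random choice of transcript and the overlap of Khdc3 with Gm20509 bear on levels between genes.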
